A study of Mus musculus with 9 samples.

Results

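Mouse chromosome 18 carries Lims2, the gene for PINCH2, and the counts of its other gene entries were compared here between control, PINCH1 mutant and PINCH2 mutant sciatic nerves. The entries were all rows of the deposited count table placed on chromosome 18, apart from Lims2 and the entries Gpr17, Camk4 and Afap1l1. That left 542 of the 25965 entries of the table. Of these, 364 had at least 1 count in some library, 178 had 0 counts in all 9 libraries, and 92 had enough counts to be tested. Because an entry can pass the filter on low counts through 1 group alone, counts and medians over the 92 tested entries describe those entries and not the 542.

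The 3 groups were PINCH1 mutants, PINCH2 mutants and control littermates, all C57BL/6 mice, whose sciatic nerves were taken at postnatal day 15 by 1 field of the labels and day 14 by the protocol. Total RNA was sequenced in 3 libraries per group, each made from a pool of 4 nerves of 1 male and 1 female stripped of their outer sheath. The sources used here do not give the alleles of the mutants, or whether PINCH was lost from all cells or from one cell type. With 3 pools per group, the p-values measure the spread between pools.

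PINCH1 and PINCH2 are adaptor proteins built of LIM domains. They bind integrin-linked kinase and parvins and tie integrins, the receptors for the basal lamina, to the actin cytoskeleton. In the sciatic nerve the basal lamina surrounds the Schwann cells that myelinate axons. A targeted allele is inherited together with the DNA on either side of it. When the allele was made in cells of another mouse strain, that flanking DNA can differ from the controls, and genes in it can then differ in expression for reasons unrelated to the targeted gene. The counts of genes along the chromosome of Lims2 bear on this question only through expression, since no genotypes were analysed here.

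Library totals ran from 957828 to 1204964 counts, and the chromosome 18 entries took 0.904% to 1.15% of them. A count of 0 allows up to 3 counts, or 2.49 to 3.13 CPM, for counting error only. CPM are the counts of an entry divided by the total of its library and brought to a common scale. All 10 markers of Schwann cells and myelin had counts, and their summed level was 13329 to 16884 CPM in controls, 10321 to 13047 in PINCH1 mutants and 10552 to 12526 in PINCH2 mutants. Every mutant library thus lay below every control library for that sum, also without Mbp, at 11038 to 13661 CPM in controls, 8784 to 10625 in PINCH1 mutants and 8975 to 10149.7 in PINCH2 mutants. In whole nerve, fewer cells of a type and less RNA per cell cannot be told apart. Markers of skeletal muscle summed to at most 8.17 CPM, and the neuron markers Rbfox3, Snap25 and Syt1 had 0 counts in every library. Of the keratinocyte markers Krt1, Krt5 and Krt14 had 0 counts, and Krt10 was at 9.57 to 29.1 CPM in controls, 63.1 to 69.9 in PINCH1 mutants and 28.6 to 61.4 in PINCH2 mutants. Lims2 itself had 1 to 9 counts per library, too few to show its loss.

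Most counts of the chromosome fell on a few entries, and many of these overlap a gene on the other strand. Mbp, which encodes myelin basic protein, took 16.4% to 30.4% of the chromosome 18 counts. Of the 92 tested entries, 46 share exon sequence with a gene on the opposite strand in the GENCODE M21 annotation, called here a partner, and 46 do not. Among pairs of entries on this chromosome that overlap in this way, 14 had both entries tested. Pkd2l2, of the polycystin family, averaged 1069.8 counts per library, while Fam13b on the other strand averaged 11.8. The gene for the macrophage growth factor receptor, Csf1r, averaged 607 counts, against 7.67 for its partner Hmgxb3. 1700066B19Rik averaged 648, against 22.2 for Ecscr, an endothelial surface receptor gene. The sources used here do not name the strand used in counting, so a count under one name of a pair cannot be told from transcription of the other, and partners are named beside the entries described. These are counts, not levels per length, and they do not rank the genes by expression.

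**Figure D1:**
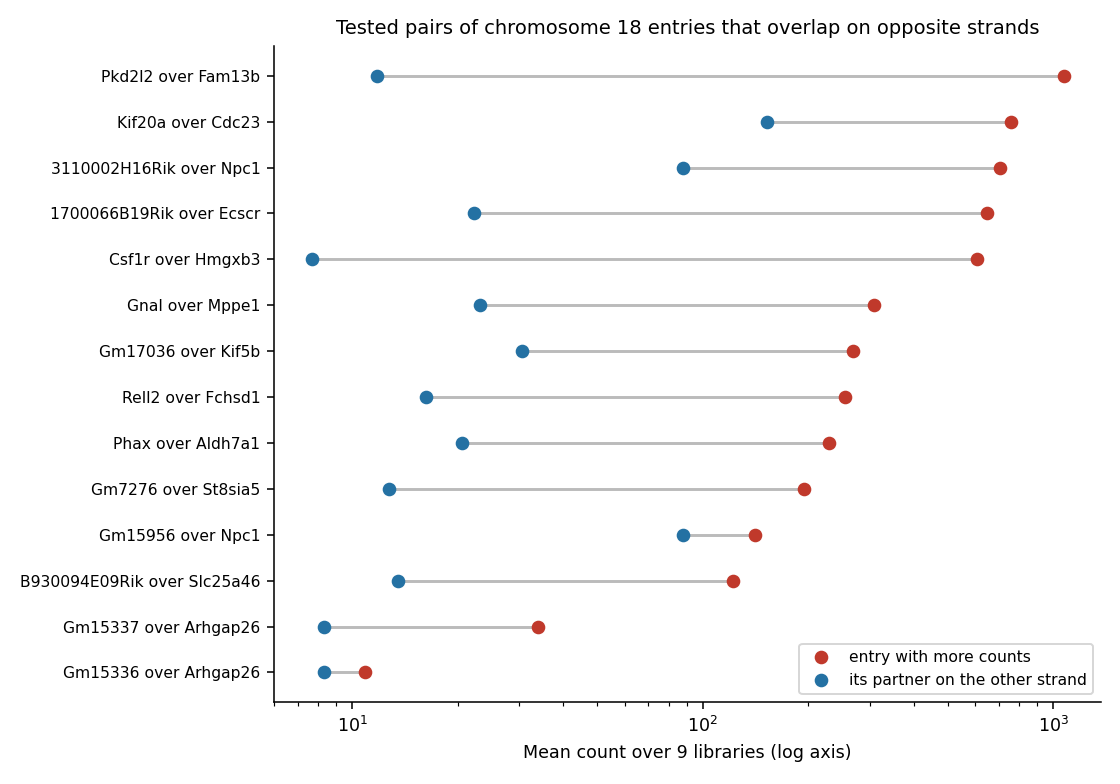
Mean counts over the 9 libraries (log axis) for the 14 pairs of tested chromosome 18 entries whose exons overlap on opposite strands; red points are the entry of a pair with more counts and blue points its partner. In the pair with the most counts, Pkd2l2 averaged 1069.8 counts and Fam13b 11.8.

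The entries next to Lims2 are given first, since DNA inherited with the mutated gene includes them. Within 1 Mb of the Lims2 start (chromosome 18, position 31931507, GRCm38) the table holds 20 entries, of which 7 were tested. None of the 7 passed the test, an edgeR quasi-likelihood test with Benjamini-Hochberg adjusted p under 0.05 over 4738 tested entries, and 0 had an unadjusted p under 0.05. Groups were said not to overlap where every library of one lay above every library of the other. By that measure 0 of 7 stood apart from controls in either mutant, where 9.05% of all tested entries did in PINCH2 and 13.7% in PINCH1 mutants. The medians of their log2 fold changes were 0.06 in PINCH2 mutants and 0.23 in PINCH1 mutants, against 0.00 and -0.02 over all tested entries. CPM values from here on are scaled between libraries by TMM factors (trimmed mean of M values).

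Sft2d3 (18, 31909094 to 31911903, minus strand), a vesicle transport gene, starts 0.0224 Mb before Lims2 and is the nearest tested entry. Its level was 71.3, 83.9 and 52.9 CPM in controls, 72.1, 74.9 and 101 in PINCH1 mutants and 97.4, 86.2 and 79.4 in PINCH2 mutants. The ranges of the 3 groups overlapped, and the log2 fold change of PINCH2 mutants against controls was 0.34 (SE 0.25, edgeR adjusted p = 0.999). Wdr33 (18, 31804057 to 31908987), a subunit of the complex that recognises polyadenylation signals, lies 0.127 Mb before Lims2. It had 93, 119 and 101 CPM in controls, 126, 143 and 114 in PINCH1 mutants and 128, 119.6 and 108 in PINCH2 mutants, with a PINCH2 log2 fold change of 0.18 (SE 0.20, edgeR adjusted p = 0.999). The highest control library stood within the range of each mutant group.

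On the other side, Iws1 (18, 32067734 to 32104331), a transcription elongation factor gene 0.136 Mb away, had 31, 15.1 and 19.7 CPM in controls, 25.5, 18.2 and 17.5 in PINCH1 mutants and 27.5, 23.4 and 19.1 in PINCH2 mutants. Its log2 fold changes were 0.10 (SE 0.37) in PINCH2 and -0.09 (SE 0.38) in PINCH1 mutants. Gypc, the glycophorin C gene, which encodes a protein of the red cell membrane, is 0.597 Mb away and had few counts: 0, 17 and 11 in controls, 12, 13 and 12 in PINCH1 mutants and 1, 9 and 9 in PINCH2 mutants. Control replicate 1 and PINCH2 mutant replicate 1 were the low libraries for Gypc. All PINCH1 libraries had more Gypc than all PINCH2 libraries, a log2 difference of 0.98 (SE 0.84, edgeR adjusted p = 0.95). Of the PINCH2 log2 fold changes of the 7 neighbours, Gypc had the one farthest from 0, -0.54 (SE 0.86, edgeR adjusted p = 0.999).

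The remaining neighbours lie before Lims2. Slc25a46, a mitochondrial outer membrane protein gene, and B930094E09Rik are partners 0.351 and 0.322 Mb away. Slc25a46 had 13.4, 19.8 and 10.8 CPM in controls, 6.38, 9.08 and 10.9 in PINCH1 mutants and 12.7, 15.9 and 17.1 in PINCH2 mutants. Both mutant groups overlapped the controls, but the PINCH1 libraries were all below the PINCH2 libraries, a difference of -0.79 (SE 0.49, edgeR adjusted p = 0.901) on the log2 scale. B930094E09Rik averaged 111 ± 15.5 CPM (SD, n = 3) in controls, 129.9 ± 25.9 in PINCH1 mutants and 106 ± 16.5 in PINCH2 mutants. Ammecr1l, over Gm26533, averaged 14 ± 6.98, 13.4 ± 2.15 and 12.6 ± 1.51 CPM in the same order.

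**Figure D2:**
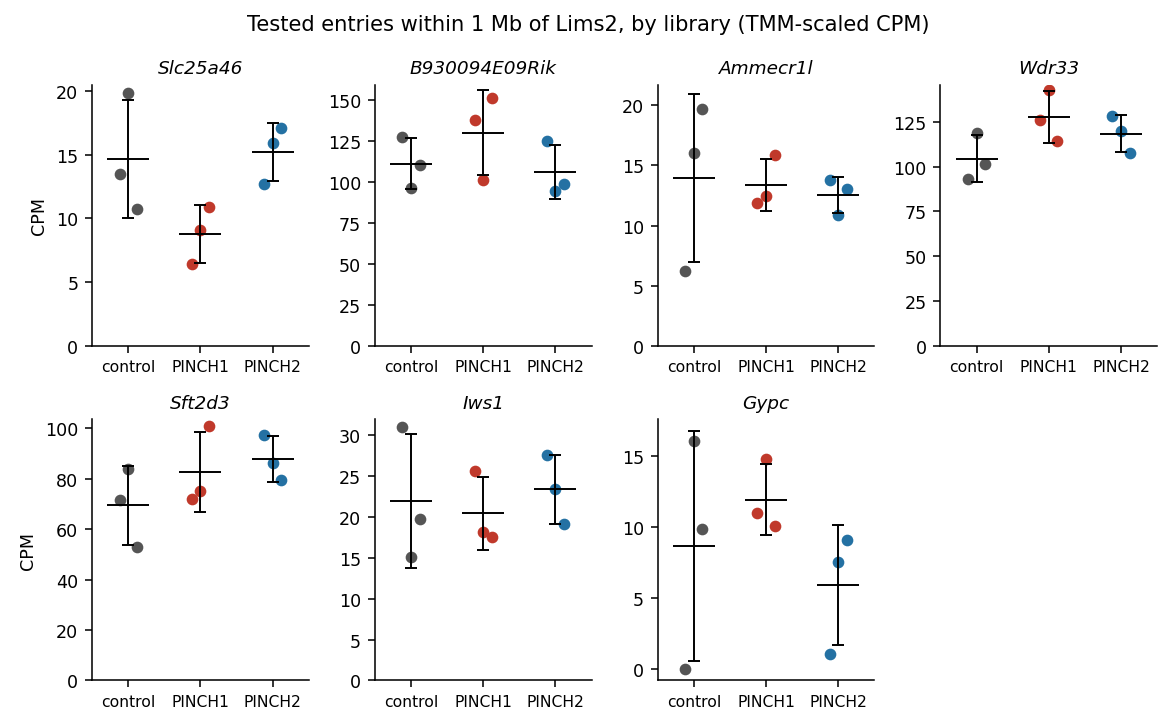
TMM-scaled CPM of the 7 tested entries within 1 Mb of Lims2 in each of the 3 control (grey), PINCH1 mutant (red) and PINCH2 mutant (blue) libraries, with the mean (long bar) and SD. Each mutant group overlaps the controls in all 7 panels, and for Sft2d3 the controls reach 83.9 CPM while the PINCH2 mutants start at 79.4.

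The other 13 neighbours had too few counts to be tested. Of them 5 had 0 counts in every library, among them Proc, which encodes the anticoagulant protein C, and the cytokine gene Tslp. The highest single count among the 13 was 23, for Myo7b, an unconventional myosin gene 0.0277 Mb from Lims2, in PINCH2 mutant replicate 3. Myo7b had 7, 7 and 6 counts in controls, 0, 3 and 5 in PINCH1 mutants and 11, 6 and 23 in PINCH2 mutants. Bin1, an amphiphysin-family gene for a protein that bends membranes, had 0 to 6 counts per library. Map3k2, a kinase gene, had 0, 3 and 7 counts in controls and 0 in each PINCH2 mutant library. No difference was tested at these counts. These untested entries are named after their values were seen.

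Of the excluded entries, Gpr17, which lies over Lims2 itself, had a log2 fold change of -1.47 (SE 0.24, edgeR adjusted p = 0.0212) in PINCH2 mutants. The strand used in counting is not given, and whether counts under Gpr17 include transcription of Lims2 was not tested. Camk4, 1.01 Mb from Lims2, was at -1.66 (SE 0.30, edgeR adjusted p = 0.032) in PINCH1 mutants and 0.91 (SE 0.28, edgeR adjusted p = 0.999) in PINCH2 mutants. Between Gpr17 and Camk4 the tested entries are Iws1 and Gypc, and beyond Camk4 the next are D0H4S114 and Apc, a Wnt pathway tumour suppressor gene. D0H4S114 had 42.4, 49.95 and 37.6 CPM in controls, 20.1, 25 and 37.6 in PINCH1 mutants and 23.3, 58.6 and 41.2 in PINCH2 mutants. Its PINCH1 libraries were below the controls, though replicate 3 of each was at 37.6 CPM, with a log2 fold change of -0.64 (SE 0.36, edgeR adjusted p = 0.784). Apc was at -0.11 (SE 0.66) in PINCH1 and -0.29 (SE 0.66) in PINCH2 mutants.

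Setting PINCH2 mutants against controls asks whether the chromosome that carries the mutated gene differs from the rest. Here Mbp was at 2071 ± 399 CPM (SD, n = 3) against 3029 ± 498 in controls, and Spire1, an actin nucleator gene, at 18.1 ± 3.94 against 7.55 ± 2, the 2 smallest p of the 92. None of the 92 passed. Over all 4738 tested entries, 0.0211% passed (edgeR). At an unadjusted p under 0.05, edgeR gave 2 of 92 entries (2.17%), against 4.26% of all tested entries, 1 above controls (1.67% of all) and 1 below (2.6%). DESeq2 and limma-voom each also gave 2 at an unadjusted p under 0.05 (against 3.55% and 3.59% of all entries) and 0 after adjustment.

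For 11 of the 92 entries the PINCH2 and control libraries did not overlap, 11.96% against 9.05% of all tested entries. The share was second of the 20 chromosomes with at least 20 tested entries, after chromosome 14 at 12.05%. Chromosomes X, at 11.86%, and 11, at 11.75%, were close to it, and chromosome 18 had the fewest tested entries of the 20. Of the 11, 3 lay above the controls (4.24% of all entries) and 8 below (4.81%). By distance from Lims2 the number was 0 of 7 within 1 Mb, 2 of 23 from 1 to 5 Mb, 1 of 14 from 5 to 10 Mb, 1 of 10 from 10 to 20 Mb and 7 of 38 beyond 20 Mb. The share was therefore 6.67% within 5 Mb and 14.5% beyond. The count of 11 became 5, or 5.43% against 8.91% of all entries, when entries with and without a partner were scaled separately. With RLE and upper-quartile scaling it was 11 and 9. Leaving out a library changes both how many libraries have to separate and which entries are tested, and the share moved for all entries too. The count was 27 of 109 (24.8% against 21.8% of all entries) without control replicate 1 and 22 of 107 (20.6% against 17.2%) without control replicate 2. It was 23 of 105 (21.9% against 18.2%), 23 of 108 (21.3% against 19.6%) and 25 of 105 (23.8% against 20.1%) without PINCH2 mutant replicates 1, 2 and 3. Without control replicate 3 it was 15 of 101 (14.9% against 18%), the leave-out of a compared library in which chromosome 18 was below all entries. Within 5 Mb the count of 2 was 6 and 4 without control replicates 1 and 2, and 5, 7 and 6 without PINCH2 mutant replicates 1, 2 and 3. In those same leave-outs the share over all entries was 17.2% to 21.8%, against 9.05% with all libraries.

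The median log2 fold change in PINCH2 mutants was -0.02 over the 92 entries and 0.00 over all tested entries. It was -0.17 for the 30 entries within 5 Mb of Lims2, of which 22 were below 0 (against 49.3% of all tested entries), and 0.15 for the 62 beyond, of which 25 were. Most of that lay between 1 and 5 Mb, where 19 of 23 were below 0 (median -0.24). Per library, the median deviation of the 30 entries from the control mean was -0.01, 0.16 and -0.23 in PINCH2 mutants and -0.07, 0.15 and -0.02 in controls, on the scale log2(CPM + 0.5). Of the PINCH2 libraries, 1 lay above, 1 within and 1 below the range of the controls. The median of the entries within 5 Mb was -0.1035, -0.0820 and -0.0754 without control replicates 1, 2 and 3 and -0.0938 without PINCH2 mutant replicate 3. With a window of 2 Mb it was -0.0046, with one of 10 Mb -0.0835, and within 5 Mb with separate scaling by partner -0.1139. In PINCH2 mutants the 46 chromosome 18 entries with a partner had a median of 0.15 and the 46 without -0.25. Over all tested entries these medians were 0.04 and -0.12.

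**Figure D3:**
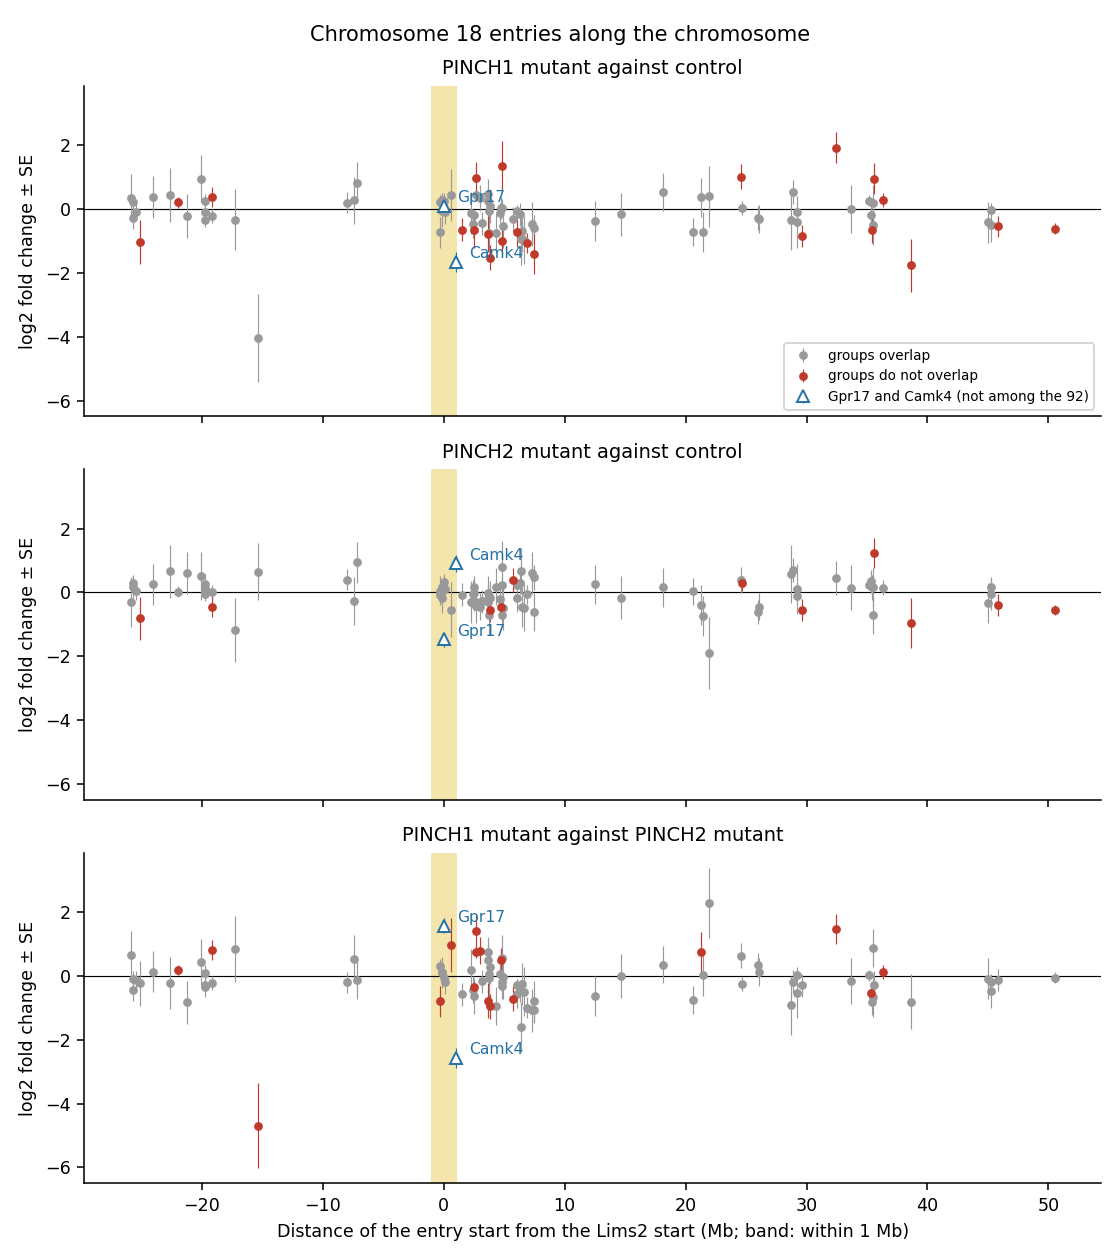
Log2 fold changes with SE (y axis) of the 92 tested chromosome 18 entries against the distance of their start from that of Lims2 in Mb (x axis), for the 3 comparisons; red points are entries whose groups do not overlap, grey points the others, and the band marks 1 Mb either side. Open triangles show Gpr17 and Camk4, which are not among the 92; inside the band no red point appears in the panels against controls.

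Setting PINCH1 mutants against controls asks the same for a gene on another chromosome, since PINCH1 is encoded by Lims1 on chromosome 10. Here Onecut2, a homeobox transcription factor gene, was at 34.8 ± 3.92 CPM (SD, n = 3) in the mutants against 8.91 ± 6.85 in controls, and Ecscr at 11.2 ± 5.05 against 31.6 ± 4.13. Mbp, the growth factor gene Fgf1 and Nr3c1, the glucocorticoid receptor gene, had all mutant libraries below all controls. None of the 92 entries passed, and 0.0633% of all tested entries did (edgeR), 0.0211% above and 0.0422% below. At an unadjusted p under 0.05, edgeR gave 11 of 92 (11.96%), against 6.37% of all entries. Of the 11, 3 were above controls (2.28% of all) and 8 below (4.09%). DESeq2 gave 11 (against 5.53% of all entries) and limma-voom 9 (against 5.78%), with 0 after adjustment in each.

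The PINCH1 and control libraries did not overlap for 22 of the 92 entries, 23.9% against 13.7% of all tested entries. Of these, 8 lay above (6.16% of all entries) and 14 below (7.49%). The share was the highest of the 20 chromosomes, which ranged from 7.91% up, and the next was 17.1% on chromosome 12. The median log2 fold change of -0.14 was the lowest of the 20, against -0.02 over all entries, with 57 of 92 below 0. Chromosome 18 also had the fewest tested entries of the 20, at 92, where the others had 118 (X) to 468 (chromosome 11). Shares and medians of a small set reach extreme ranks more easily, and the ranks were not tested. Entries without a partner were at -0.21 on this chromosome and -0.17 over the whole table, and those with a partner at -0.08 and 0.05.

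The excess over the other chromosomes depended on the filter. When entries needed 1 CPM or more in at least 3 libraries (the 1 CPM filter), 13.6% of 236 chromosome 18 entries did not overlap, against 12.1% of all entries, and with no filter 9.07% of 364, against 8.87%. With RLE, upper-quartile and separate scaling the share stayed above that of all entries, at 22.8% against 13.6%, 20.7% against 13.8% and 21.7% against 12.9%. It also did in each leave-out of 1 library. The count was 37 of 109 (33.9% against 25.1% of all entries) without control replicate 1 and 39 of 107 (36.4% against 25.7%) without control replicate 2. It was 33 of 105 (31.4% against 23%) and 39 of 111 (35.1% against 25.3%) without PINCH1 mutant replicates 1 and 2. By distance from Lims2, with all 9 libraries, the entries that did not overlap were 0 of 7 within 1 Mb, 7 of 23 from 1 to 5 Mb (30.4%), 3 of 14 from 5 to 10 Mb (21.4%), 1 of 10 from 10 to 20 Mb (10%) and 11 of 38 beyond 20 Mb (28.9%). Over all tested entries the share was 13.7%. Within 5 Mb of Lims1 on chromosome 10 the same count in this comparison was 4 of 19 tested entries (21.1%, against the same 13.7%).

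**Figure D4:**
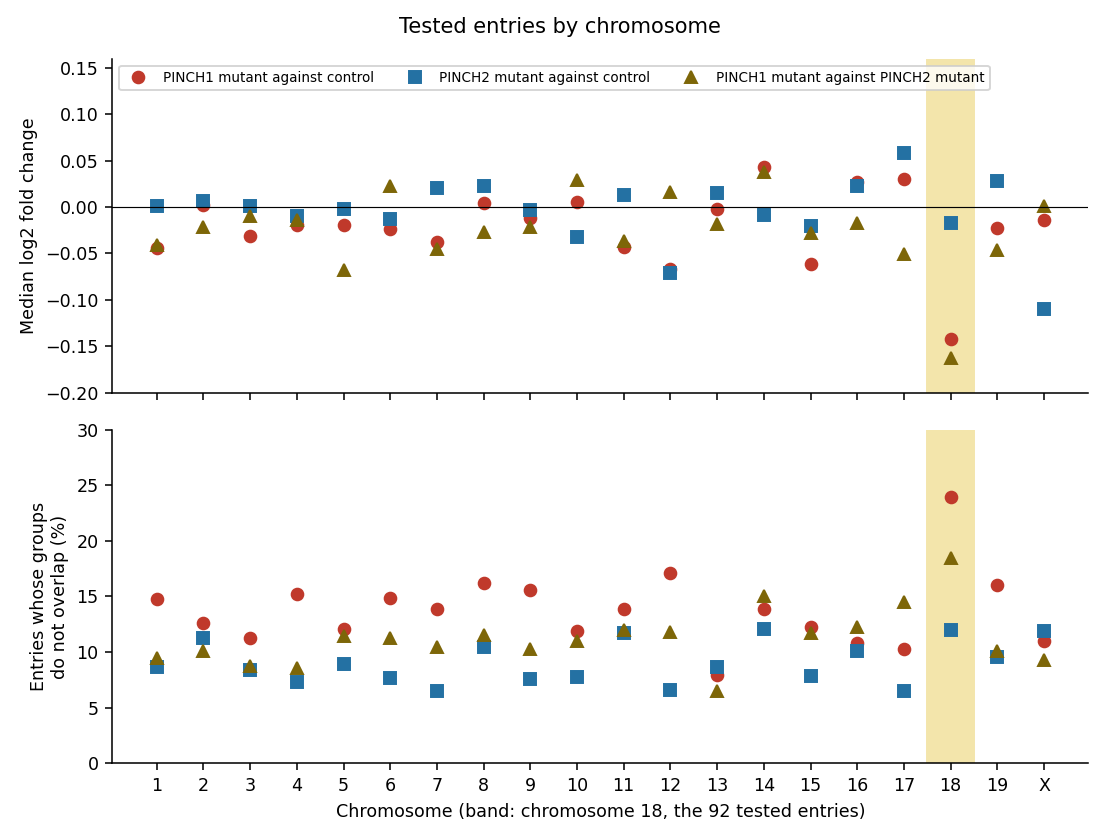
Median log2 fold change (upper) and percentage of tested entries whose groups do not overlap (lower) for each chromosome with at least 20 tested entries, in the 3 comparisons; the band marks chromosome 18. In PINCH1 mutants against controls, chromosome 18 had 23.9% of entries without overlap and a median of -0.14.

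The single entries behind these counts lie on both sides of Lims2, most of them after it. In PINCH1 mutants against controls, 3 of 25 tested entries before Lims2 (12%) did not overlap, and 19 of 67 after it (28.4%). The share over all tested entries was 13.7%. The median log2 fold change was 0.21 before Lims2 and -0.28 after it, against -0.02 over all entries. The difference between the 2 sides was not tested. Onecut2 (18, 64340364 to 64398486), 32.4 Mb from Lims2, had 1, 13 and 15 counts in controls, 43, 28 and 40 in PINCH1 mutants and 10, 21 and 9 in PINCH2 mutants. All PINCH1 libraries were above all others, and control replicate 1 was the lowest library. Its log2 fold change was 1.93 (SE 0.50, edgeR adjusted p = 0.281) in PINCH1 and 0.46 (SE 0.54, edgeR adjusted p = 0.999) in PINCH2 mutants. The PINCH1 value passed with no filter (adjusted p = 0.0426) and with the 1 CPM filter (adjusted p = 0.0239), and in no other setting.

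Mbp (18, 82475146 to 82585637), 50.5 Mb from Lims2, is the main structural gene of compact myelin on this chromosome. It had 2474, 3435 and 3179 CPM in controls, 2333, 1670.4 and 1954 in PINCH1 mutants and 1625, 2395 and 2193 in PINCH2 mutants. Every mutant library was below every control library, with log2 fold changes of -0.61 (SE 0.17, edgeR adjusted p = 0.373) and -0.55 (SE 0.17, edgeR adjusted p = 0.999), which share the same controls. The nearest libraries were control replicate 1 and PINCH2 mutant replicate 2. The summed Schwann cell markers without Mbp were lower in the same libraries, as given above, and their part in the Mbp value was not tested. The PINCH1 value had an adjusted p of 0.0466 with the 1 CPM filter.

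Fgf1 (18, 38838673 to 38929404, minus strand), a fibroblast growth factor gene that lies inside the span of Arhgap26 on the other strand, had 63.1, 71.6 and 83.3 CPM in controls, 50.2, 31.8 and 23.4 in PINCH1 mutants and 49.8, 94.5 and 64.3 in PINCH2 mutants. The PINCH1 libraries were all below the controls, while the PINCH2 libraries spread on both sides of them. The log2 fold changes were -1.05 (SE 0.32, edgeR adjusted p = 0.422) and -0.06 (SE 0.30, edgeR adjusted p = 0.999). Nr3c1, 7.48 Mb from Lims2, had 7, 19 and 20 counts in controls, 7, 5 and 5 in PINCH1 mutants and 5, 14 and 11 in PINCH2 mutants, with a PINCH1 log2 fold change of -1.40 (SE 0.63, edgeR adjusted p = 0.742). Control replicate 1 and PINCH1 mutant replicate 1 had the same count of 7, and they separated only after scaling.

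Ecscr (18, 35713086 to 35722356, minus strand), 3.78 Mb from Lims2, had 34.1, 33.9 and 26.9 CPM in controls, 11.9, 15.9 and 5.84 in PINCH1 mutants and 20.1, 21.8 and 22.1 in PINCH2 mutants. The 3 groups did not overlap one another, with the PINCH1 mutants lowest. Its log2 fold change was -1.52 (SE 0.39, edgeR adjusted p = 0.281) in PINCH1 and -0.56 (SE 0.37, edgeR adjusted p = 0.999) in PINCH2 mutants. Its partner 1700066B19Rik, with far more counts, stood at -0.05 (SE 0.16) and -0.10 (SE 0.16). The 5 endothelial markers summed to 7.66 to 13.5 CPM in controls, 9.47 to 23.2 in PINCH1 mutants and 5.71 to 14.9 in PINCH2 mutants. These ranges overlap, and the part of endothelial cells in the Ecscr value was not tested.

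Csnk1a1, the casein kinase 1 alpha gene, had 36.2, 28.3 and 34 CPM in controls, 20.1, 15.9 and 18.4 in PINCH1 mutants and 19.1, 20.1 and 28.1 in PINCH2 mutants. All mutant libraries were below all controls, with log2 fold changes of -0.85 (SE 0.34) and -0.55 (SE 0.33) and adjusted p of 0.65 and 0.999 (edgeR). It is the tested entry before Afap1l1, and Onecut2 is the one after. Ik, a splicing factor gene 99 bp from Ndufa2 on the other strand, had 21.7, 28.3 and 40.3 CPM in controls, 16.4, 12.5 and 15.9 in PINCH1 mutants and 21.2, 10.9 and 24.1 in PINCH2 mutants. Its PINCH1 libraries lay below the controls, with a log2 fold change of -1.004 (SE 0.39), and its PINCH2 libraries overlapped them, with -0.70 (SE 0.39).

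Above the controls in PINCH1 mutants was Aldh7a1, a lysine breakdown enzyme gene over Phax, which encodes an RNA export adaptor. Aldh7a1 had 14.5, 14.1 and 11.6 CPM in controls, 31.9, 23.8 and 25.9 in PINCH1 mutants and 18, 25.1 and 9.05 in PINCH2 mutants, a PINCH1 log2 fold change of 1.02 (SE 0.40, edgeR adjusted p = 0.65). Phax, with more counts, was at 0.03 (SE 0.23). Spire1 had 6.2, 6.6 and 9.85 CPM in controls, 14.6, 19.3 and 10.9 in PINCH1 mutants and 18, 14.2 and 22.1 in PINCH2 mutants. All its mutant libraries were above all its controls, with log2 fold changes of 0.95 (SE 0.49, edgeR adjusted p = 0.776) and 1.24 (SE 0.48, edgeR adjusted p = 0.999).

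PINCH1 and PINCH2 mutants were also compared with each other. The controls are not a side of this comparison, but all 9 libraries set the filter, the scaling and the spread behind its p-values. Kif20a, a mitotic kinesin gene, and Cdc23, a subunit of the anaphase-promoting complex, lie over each other 2.69 Mb from Lims2 and both had all PINCH1 libraries above all PINCH2 libraries. Cdh2, which encodes N-cadherin, and Fgf1 were at lower counts in PINCH1 than in PINCH2 mutants. None of the 92 entries passed, and 0.0844% of all tested entries did (edgeR), 0.0422% in each direction. At an unadjusted p under 0.05, edgeR gave 10 of 92 (10.9%), against 6.35% of all entries. Of the 10, 5 were higher in PINCH1 mutants (2.91% of all) and 5 lower (3.44%). DESeq2 gave 11 (against 5.4% of all entries) and limma-voom 9 (against 5.3%), and 0 after adjustment.

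Kif20a (18, 34624624 to 34633265) had 572, 864 and 610.1 CPM in controls, 808, 1096 and 879 in PINCH1 mutants and 484, 616 and 555 in PINCH2 mutants. Control replicate 2 lay among the PINCH1 values and the other controls among the PINCH2 values. The log2 difference of PINCH1 minus PINCH2 mutants was 0.75 (SE 0.18, edgeR adjusted p = 0.213), the smallest p among the 92 in this comparison. Cdc23 (18, 34630951 to 34651735, minus strand) had 40.3, 199.8 and 108 CPM in controls, 246, 237 and 204 in PINCH1 mutants and 56.1, 119 and 83.4 in PINCH2 mutants, and a difference of 1.40 (SE 0.51, edgeR adjusted p = 0.779). Control replicate 1 was the lowest of the 9 libraries for Cdc23. Without it the difference was 1.41 and passed (adjusted p = 0.0279), as it did with the 6 libraries alone (adjusted p = 0.00892), with no filter (adjusted p = 0.00547) and with the 1 CPM filter (adjusted p = 0.0289). Kif20a passed with no filter (adjusted p = 0.0272) and with the 1 CPM filter (adjusted p = 0.0267). Its neighbours Pkd2l2, at -0.36 (SE 0.16), and Hspa9, a mitochondrial chaperone gene at 0.79 (SE 0.41), also had groups that did not overlap, in opposite directions.

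Cdh2 (18, 16588877 to 16809246, minus strand), 15.3 Mb before Lims2, had 1, 3 and 19 counts in controls, 0, 1 and 0 in PINCH1 mutants and 15, 13 and 7 in PINCH2 mutants. The PINCH1 libraries were all below the PINCH2 libraries, while control replicate 3 alone held most of the control counts. The fitted difference of -4.69 (SE 1.34, edgeR adjusted p = 0.342) depends on the prior count at such low values, and with the 1 CPM filter its adjusted p was 0.0329. The other entries with the smallest p in this comparison were Onecut2 at 1.46, Fgf1 at -0.99, Gm15337 over Arhgap26 at -1.06, Osbpl1a over AC102055.1 at 0.81, Ecscr at -0.96 and Csnk1g3 at 2.29. Their adjusted p ran from 0.487 to 0.786 (edgeR). Csnk1g3, a casein kinase 1 gamma gene, had 13, 13 and 3 counts in PINCH1 and 1, 5 and 0 in PINCH2 mutants, so its groups overlapped.

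**Figure D5:**
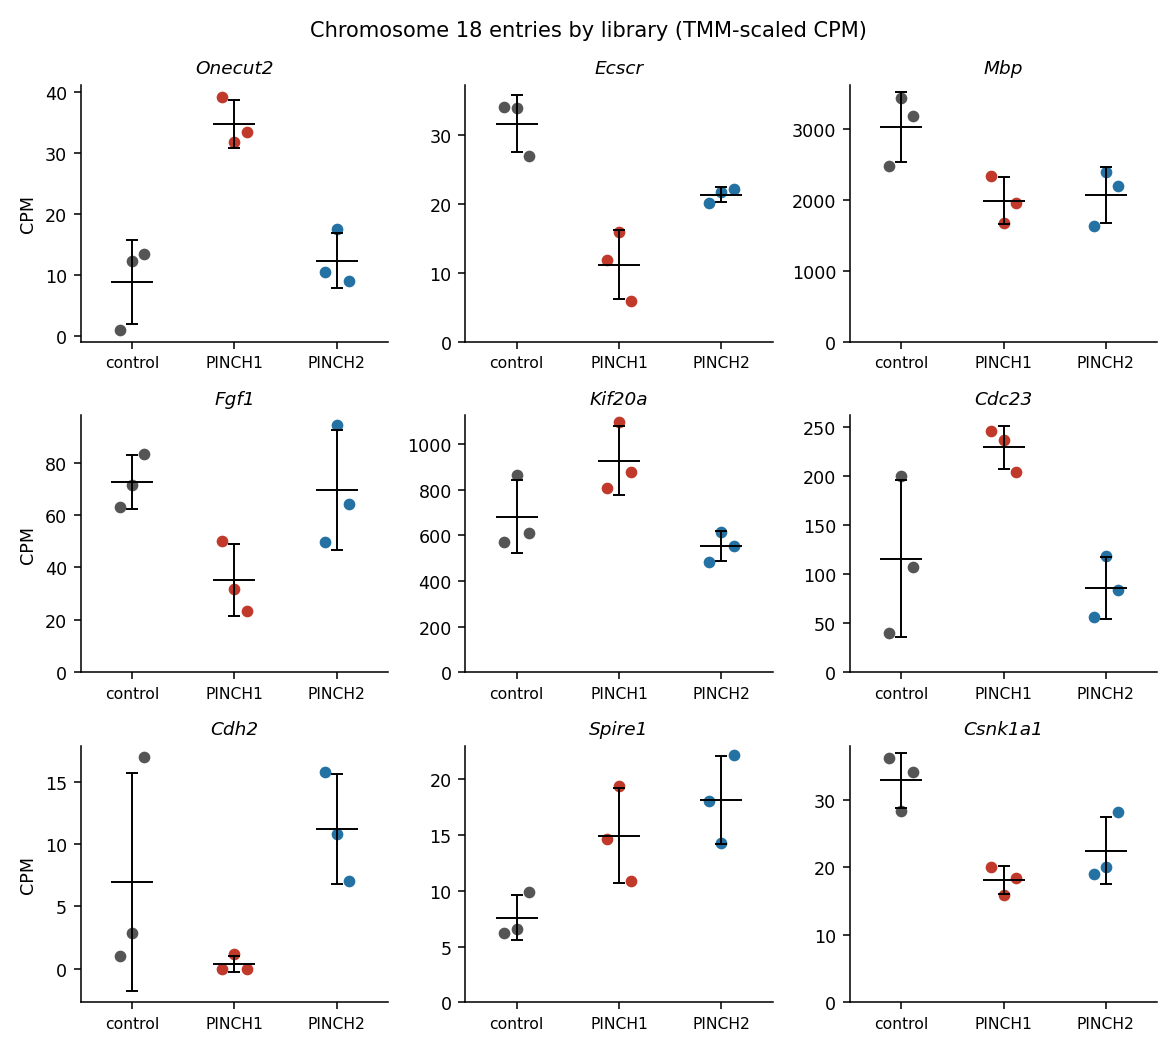
TMM-scaled CPM of 9 chromosome 18 entries in the 3 control (grey), PINCH1 mutant (red) and PINCH2 mutant (blue) libraries, with the mean (long bar) and SD. For Onecut2 the PINCH1 libraries stand at 39.2, 31.8 and 33.4 CPM, above the other 6, and for Ecscr the 3 groups do not overlap.

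PINCH1 and PINCH2 libraries did not overlap for 17 of the 92 entries, 18.5% against 11.0% of all tested entries, 10 with PINCH1 above (5.42%) and 7 with PINCH1 below (5.57%). Within 5 Mb of Lims2 it was 9 of 30 and beyond 5 Mb 8 of 62. The median of -0.16 over the 92 entries, the smallest set of the 20 chromosomes, was the lowest of the 20, against -0.02 over all entries. It was 0.00 within 5 Mb, -0.52 from 5 to 10 Mb, -0.11 from 10 to 20 Mb and -0.13 beyond 20 Mb. From 5 to 10 Mb 13 of 14 were below 0, against 52.6% of all tested entries, but only 1 of the 14 did not overlap (7.14%, against 11.0%). With no filter the share without overlap was 10.4% against 7.69% of all entries. Without any 1 of the 6 mutant libraries the count was 28 to 35, where 19.4% to 23.7% of all entries separated.

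Genes of the chromosome were also grouped by what they are known to do. Of 12 genes listed under myelin and Schwann cells, 6 were tested and 0 passed in any comparison. The list was chosen with earlier results of these data known, and not all of its genes are particular to myelin or Schwann cells. In PINCH1 mutants all 6 were below 0, with a median log2 fold change of -0.87 against -0.02 over all tested entries. Among the 6 is Cdh2, which passed the filter on low counts through its PINCH2 and control counts and had 0 to 1 counts in PINCH1 mutants. Of the other 5, Ndfip1 had the middle value, -0.70. In PINCH2 mutants 5 of 6 were below 0, with a median of -0.50 against 0.00. The 6 are Mbp, Fgf1, Nr3c1, Cdh2, the chloride cotransporter gene Slc12a2 and the ubiquitin ligase adaptor gene Ndfip1. Slc12a2 was at -0.28 (SE 0.37) in PINCH1 and -0.61 (SE 0.38) in PINCH2 mutants. Of those not tested, Sh3tc2, whose loss causes a demyelinating neuropathy, had 9, 7 and 15 counts in controls, 13, 1 and 11 in PINCH1 mutants and 3, 7 and 5 in PINCH2 mutants, with overlapping groups.

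Of 13 adhesion and cytoskeleton genes, the group closest to the known work of PINCH, 5 were tested, 0 passed and 0 separated from the controls in either mutant. Ctnna1, the alpha-catenin gene over Lrrtm2, was at -0.44 (SE 0.36) in PINCH1 and -0.27 (SE 0.36) in PINCH2 mutants. Kif5b, a kinesin heavy chain gene over Gm17036, was at -0.28 (SE 0.35) and 0.17 (SE 0.34), and Fhod3, a formin gene over Gm9955, at 0.83 (SE 0.64) and 0.94 (SE 0.63). Of 8 genes listed as mitochondrial 4 were tested and 0 passed. The 4 are Atp5a1, Hspa9, Slc25a46 and Mcc, and the last is known as a gene mutated in colorectal cancer, not for a mitochondrial role. Atp5a1, an ATP synthase subunit gene over Haus1, had 33.1, 34.9 and 35.8 CPM in controls, 29.2, 14.8 and 26.7 in PINCH1 mutants and 21.2, 29.3 and 28.1 in PINCH2 mutants. All its mutant libraries were below its controls, at -0.54 (SE 0.34, edgeR adjusted p = 0.816) and -0.40 (SE 0.34, edgeR adjusted p = 0.999).

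Of 14 transcription factor genes 3 were tested (Onecut2, Nr3c1 and Zfp532, the last over AC132307.3), and 0 passed. The ribosomal protein gene Rps14 was at 0.53 (SE 0.38) in PINCH1 and 0.71 (SE 0.38) in PINCH2 mutants, and Hars2, a mitochondrial histidyl-tRNA synthetase gene over Hars, at 0.04 (SE 0.28) and 0.23 (SE 0.28). Of 7 matrix and growth factor genes 2 were tested. Lox, the gene for the collagen crosslinking enzyme lysyl oxidase, over AC161119.1, was at -0.73 (SE 0.44) and 0.03 (SE 0.42), and Fbn2, the fibrillin 2 gene over Gm26507, at -0.31 (SE 0.43) and -0.44 (SE 0.43). Of 7 genes listed as immune 2 were tested, of which Ecscr, described above, is an endothelial gene and Csf1r a macrophage gene. Csf1r was at -0.09 (SE 0.16) and -0.12 (SE 0.16), with overlapping groups.

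The clustered protocadherins, adhesion receptors of neurons, had 24 entries on the chromosome, 12 of them at 0 in all libraries. The 1 tested, Pcdhga11, had 14.5, 34.9 and 36.7 CPM in controls, 36.5, 19.3 and 13.4 in PINCH1 mutants and 37.1, 39.3 and 37.2 in PINCH2 mutants. Its span runs through the rest of the gamma cluster, so its counts cannot be assigned to that gene alone. All 9 desmosomal cadherin entries (Dsg and Dsc genes), which mark skin and other lining epithelia, had 0 counts in every library. The 4 SMAD signalling genes had at most 10 counts in a library and were not tested.

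Among the tested entries with the highest mean CPM, Thoc1, an mRNA export gene over Usp14, had all PINCH1 libraries above the controls, at 0.21 (SE 0.17), and its PINCH2 libraries overlapped them, at 0.03 (SE 0.17). Gnal, a G protein gene over Mppe1, was at 0.26 (SE 0.17) in PINCH1 and 0.25 (SE 0.17) in PINCH2 mutants. 3110002H16Rik lies over Npc1, a cholesterol transport gene, and was at -0.35 (SE 0.21) and -0.06 (SE 0.21). Rell2, over Fchsd1, was at -0.07 (SE 0.19) and 0.22 (SE 0.19). For the last 3 both mutant groups overlapped the controls.

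Whether linked DNA accounts for any of these values was not tested, because strain variants were not analysed here. In PINCH2 mutants Gpr17, inside the span of Lims2, passed the test, while the 7 tested chromosome 18 entries within 1 Mb overlapped the controls. Whether counts under Gpr17 include transcription of Lims2, the gene mutated in this group, was not tested. Within 5 Mb, 22 of 30 entries were below 0 and 2 of 30 did not overlap the controls (6.67%, against 9.05% of all tested entries), with the leave-out values given above. Entries without overlap numbered 22 of 92 in PINCH1 and 11 of 92 in PINCH2 mutants, and over all tested entries the share was also higher in PINCH1 mutants, at 13.7% against 9.05%. The difference between the counts was not tested, and both use the same control libraries.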

How the data were processed

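The submitters' processing notes name HISAT2 2.0.5, Trim Galore 0.4.2, cutadapt 1.9.1 and the build GRCm38. The sources used here do not give the counting tool, strand setting or annotation release. The table deposited by the authors holds raw whole-number counts for 25965 gene entries in 9 libraries, and 0 columns were left unmapped. Partners were found with bedtools 2.31.1 as exon overlap on the opposite strand in GENCODE M21 (GRCm38), which held 532 of the 542 entries.

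All entries were fitted together with edgeR 4.0.16 in R 4.3.3 (quasi-likelihood F-test, robust dispersion, TMM scaling, filterByExpr, 9 libraries, genotype as the only term), with Benjamini-Hochberg adjustment over the 4738 entries that passed the filter and a threshold of 0.05. Each SE was taken as |log2 fold change| over the square root of F. Groups do not overlap where every library of one lies above every library of the other. The procedure was tested on simulated counts. Alternatives were RLE and upper-quartile scaling, separate scaling by partner, DESeq2 1.42.0, limma-voom (limma 3.58.1), other filters, 6 libraries, a replicate block, stricter thresholds, other windows and each library left out. Of the entries excluded from the chromosome, 4 are in the table. Named entries were the 10 with the smallest p in each comparison, the tested neighbours of Lims2, Gpr17, Camk4 and Afap1l1, the 10 with most CPM, the top 3 of each list, and partners. The entries, lists and rule were chosen with earlier results of these data known.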

Additional observations from a re-analysis of the deposited data

Results flagged for a closer look

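Osbpl1a, an oxysterol-binding protein gene 19.2 Mb before Lims2 whose exons overlap AC102055.1 on the other strand, was picked out because the 2 mutants lay on opposite sides of the controls. It had 26.9, 29.2 and 31.4 CPM in controls, 40.1, 37.4 and 35.9 in PINCH1 mutants and 21.2, 26.8 and 16.1 in PINCH2 mutants, with all PINCH1 libraries above and all PINCH2 libraries below every control. The difference between the mutants was 0.81 on the log2 scale (SE 0.32) and did not pass (edgeR adjusted p = 0.756).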

How the results depend on the processing

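The number of tested chromosome 18 entries past the threshold was 0 in each direction and comparison. It was also 0 with RLE, upper-quartile and separate scaling, DESeq2, limma-voom, the replicate block and the stricter thresholds. With no filter it was 1 higher in PINCH1 mutants than controls and 2 higher in PINCH1 than PINCH2 mutants. With the 1 CPM filter it was 1 higher and 1 lower for PINCH1 mutants against controls, and 2 higher and 1 lower for PINCH1 against PINCH2 mutants. With the 6 libraries alone it was 1 higher for PINCH1 against PINCH2 mutants, and leaving out single libraries gave 0 to 1. The filters also change how many entries are tested and adjusted over; the cause of these calls was not tested. The median log2 fold change was -0.2392 for PINCH1 mutants against controls with the 1 CPM filter, and -0.2367 within 5 Mb of Lims2. Within a window of 2 Mb it was 0.0816 in PINCH1 and -0.0046 in PINCH2 mutants, and within 10 Mb -0.1875 for PINCH1 against PINCH2 mutants. That last comparison had a median of 0 over all 364 entries with no filter. Entries without overlap in PINCH2 mutants numbered 26 of 364 with no filter (7.14% against 7.18% of all entries). They numbered 24 of 236 with the 1 CPM filter (10.2% against 9.54%). With separate scaling they numbered 5 of 92 (5.43% against 8.91%), with 1 within 5 Mb. Between the mutants there were 38 of 364 with no filter (10.4% against 7.69%) and 37 of 236 with the 1 CPM filter (15.7% against 10.3%). Leaving out each library in turn gave 22 to 39 in PINCH1 mutants, 11 to 27 in PINCH2 mutants and 18 to 35 between them. Within 5 Mb it gave 6 to 13, 2 to 7 and 10 to 16 in that order, while the shares over all entries moved as just given. Leaving out a library changes the entries tested (101 to 111 of the chromosome) and, where it belongs to the comparison, how many libraries have to separate. Medians ranged from -0.059 to 0.0704 in PINCH2 mutants against controls, from -0.1906 to -0.0718 between the mutants, and from -0.1493 to 0.0257 between the mutants within 5 Mb. Of 2790 alternative values of the 52 named entries, 119 had the opposite sign, none of them called and none with a main log2 fold change beyond 0.83, and 10 passed the threshold, all given in the report. With the replicate block the smallest adjusted p among the named entries was 0.0589 (edgeR). Same-numbered libraries of different groups had correlations from -0.11 to 0.25 with 3 of 9 above 0.1. Different-numbered ones had correlations from -0.20 to 0.14. These ranges overlap and do not settle whether the numbers pair the samples. In simulated counts for PINCH1 mutants against controls, 20.6% of 97 entries changed 2-fold and 64.1% of 92 changed 4-fold were recovered among 4738 entries. Most 2-fold changes were thus missed there. The simulation gave 80 calls and the real comparison 3, so an adjusted p under 0.05 was easier to reach in the simulation. Recovery was not measured for chromosome 18 entries alone or for the other comparisons.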
